A study of Mus musculus with 24 samples.

Results

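NF-kB is a family of dimeric transcription factors, and 10 of its genes were followed across 24 libraries of mouse blood stem cells: the subunit genes Rela, Rel, Relb, Nfkb1 and Nfkb2, the inhibitors and feedback regulators Nfkbia, Nfkbiz, Bcl3 and Tnfaip3, and the adhesion gene Icam1. They were taken by gene name from a table of 38215 genes. Each name matched 1 row, and all 10 were among the 15879 genes that passed the filter on low counts. The NF-kB subunits rest in the cytoplasm, held by inhibitors such as the product of Nfkbia, until signals from tumour necrosis factor, interleukin-1 or Toll-like receptors switch on the IkB kinases. The released dimers bind kB sites in DNA and, among many other targets, switch on their own inhibitors, which makes Nfkbia and Tnfaip3 brakes on the pathway. In blood stem cells the pathway is known for its part in survival, in maintenance and in the response to infection and inflammation.

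The cells were long-term haematopoietic stem cells (LT-HSCs), the self-renewing cells from which all blood descends, sorted as lineage-negative, Sca1+, cKit+, CD150+ and CD48- cells, and their polyadenylated RNA was sequenced. They came from 12 lethally irradiated C57BL/6J recipients (CD45.1+/CD45.2+), each repopulated by an equal mixture of Jak2V617F and wild-type marrow, so that a library of both genotypes was made from each mouse. The question was what repeated pegylated interferon alpha (pegIFNa) does to stem cells that carry Jak2V617F, the activating kinase mutation of myeloproliferative neoplasms, and to their normal neighbours. The 4 groups held 6 libraries each. Jak2V617F cells with pegIFNa were heterozygous CD45.2 donor cells, labelled C57Bl/6N Jak2V617F/+ Tg(E2A-cre), from mice given 5 weekly doses of 600 ng over 4 weeks and sampled 48 hours after the last. Jak2V617F cells with vehicle had the same genotype and came from mice given the carrier solution. WT cells with pegIFNa were CD45.1 donor cells with normal Jak2, labelled C57Bl/6N Ptprca, from the same treated mice, and WT cells with vehicle came from the same vehicle mice. Ages are not given in the labels. The E2A promoter drives Cre broadly, so the mutation is not limited to blood cells in the donor. Genotype went together with donor, with the CD45 allele and, by the sex-linked genes given next, with the sex of the donor cells, and these cannot be told apart from the mutation in any comparison of genotypes.

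Library totals were 24.6 to 39.7 M counts. Of 14 LT-HSC marker genes, 14 were detected in every group, and the gate antigens Kit (337, 614, 509 and 929 CPM in Jak2V617F pegIFNa, Jak2V617F vehicle, WT pegIFNa and WT vehicle cells) and Slamf1 (37.0, 37.3, 35.2 and 40.2 CPM) were present throughout. Ly6a, the gene of the gate antigen Sca1, was at 263, 53.2, 228 and 57 CPM in the same order, higher with pegIFNa in both genotypes. Whether the gate took the same cells in both treatments was not tested. CPM are counts per library size, with TMM scaling. Sex-linked genes split by genotype: apart from 1 library in each genotype, Jak2V617F libraries had 3 to 110 CPM of Xist and WT libraries 1800 to 3310 CPM, and the summed Y-linked genes stood at 149 to 243 CPM in all Jak2V617F libraries and at 2.17 to 75.7 CPM in the same WT libraries. That pair stood apart: Jak2V617F pegIFNa replicate 1 (mouse 10) had 654 CPM of Xist against 40.8 to 110 CPM in the other 5 libraries of its group, and WT vehicle replicate 4 (mouse 44) had 600 CPM against 1940 to 3310 CPM, with 250 CPM of the Y-linked genes. No member of the 10 genes had a library that stood apart from its group by Dixon's gap test (40 groups of 6 tested). In bulk RNA, fewer cells that express a gene and less RNA per cell cannot be told apart.

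Subunit and feedback genes of the family are textbook targets of NF-kB itself, and 5 promoters are printed to show where kB letters stand in them. RefSeq windows of the 250 bases before the transcription start (GRCm38.p6) were at hand for 7 of the 10 genes, in 10 windows, and not for Relb, Nfkb1 and Nfkbiz. Capitals mark matches to the kB consensus and, in Nfkb2 and Icam1, also to the GAS element TTCNNNGAA, the site read by STAT factors. Both strands were searched.
Rel (chr11:23770970-23771219, minus strand): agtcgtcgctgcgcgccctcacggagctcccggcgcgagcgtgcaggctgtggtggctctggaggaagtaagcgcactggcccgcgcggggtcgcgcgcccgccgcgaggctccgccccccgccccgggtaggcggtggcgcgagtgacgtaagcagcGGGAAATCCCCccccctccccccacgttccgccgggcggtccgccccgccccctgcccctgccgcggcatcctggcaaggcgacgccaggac
Nfkb2 (chr19:46304487-46304736, plus strand): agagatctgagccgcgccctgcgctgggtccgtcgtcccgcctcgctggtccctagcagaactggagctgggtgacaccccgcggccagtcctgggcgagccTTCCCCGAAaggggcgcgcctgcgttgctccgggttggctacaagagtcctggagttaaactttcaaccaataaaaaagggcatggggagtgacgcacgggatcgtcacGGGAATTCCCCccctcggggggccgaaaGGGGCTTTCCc
Nfkbia (chr12:55492648-55492897, minus strand): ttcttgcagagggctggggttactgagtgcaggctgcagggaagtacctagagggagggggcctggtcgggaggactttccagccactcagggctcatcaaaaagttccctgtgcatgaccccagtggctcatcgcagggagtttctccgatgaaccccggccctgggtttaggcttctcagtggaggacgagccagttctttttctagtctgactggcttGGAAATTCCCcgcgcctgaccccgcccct
Tnfaip3 (chr10:19015411-19015660, minus strand): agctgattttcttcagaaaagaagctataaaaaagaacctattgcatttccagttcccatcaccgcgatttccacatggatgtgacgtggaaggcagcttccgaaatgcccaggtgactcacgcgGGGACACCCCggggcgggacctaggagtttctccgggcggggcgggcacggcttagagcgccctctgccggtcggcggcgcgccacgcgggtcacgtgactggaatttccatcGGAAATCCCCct
Icam1 (chr9:21015690-21015939, plus strand): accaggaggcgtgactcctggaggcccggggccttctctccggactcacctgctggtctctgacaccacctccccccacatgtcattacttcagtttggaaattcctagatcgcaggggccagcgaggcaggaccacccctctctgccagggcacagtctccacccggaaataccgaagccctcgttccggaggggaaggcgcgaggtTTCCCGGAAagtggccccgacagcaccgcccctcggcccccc
Positions are those of the printed windows, and Nfkb2 has further windows at other starts. The kB consensus was present in windows of 4 of the 7 genes, namely Rel, Nfkb2, Nfkbia and Tnfaip3, against 8.23% of 27025 genes with a window. Only full matches to the consensus were marked. The Icam1 window holds tggaaattcc, which departs from the consensus in its first letter and is left in lower case. In Rel a pair of overlapping matches lay at bases -92 to -82 from the start. In Nfkb2 a pair of overlapping matches lay at -39 to -29 and a further one at -11 to -2, and both other Nfkb2 windows, not printed, held 1 match each, at -236 to -227 and at -225 to -216 from their own starts. Nfkbia had 1 match at -29 to -20, and Tnfaip3 had matches at -125 to -116 and -12 to -3. The Tnfaip3 positions count from the RefSeq start. In the count table this minus-strand gene runs from 19000910 to 19015657, so nearly all of its printed window lies inside the gene. The GAS element was found in Icam1 at -42 to -34 and in Nfkb2 at -148 to -140, where the capitals read TTCCCCGAA, and in 8.13% of all genes. The core of the interferon-stimulated response element, GAAANNGAAA, was in none of the 10 windows and in 3.46% of all genes. These are letters in a window, not measured binding.

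**Figure D1:**
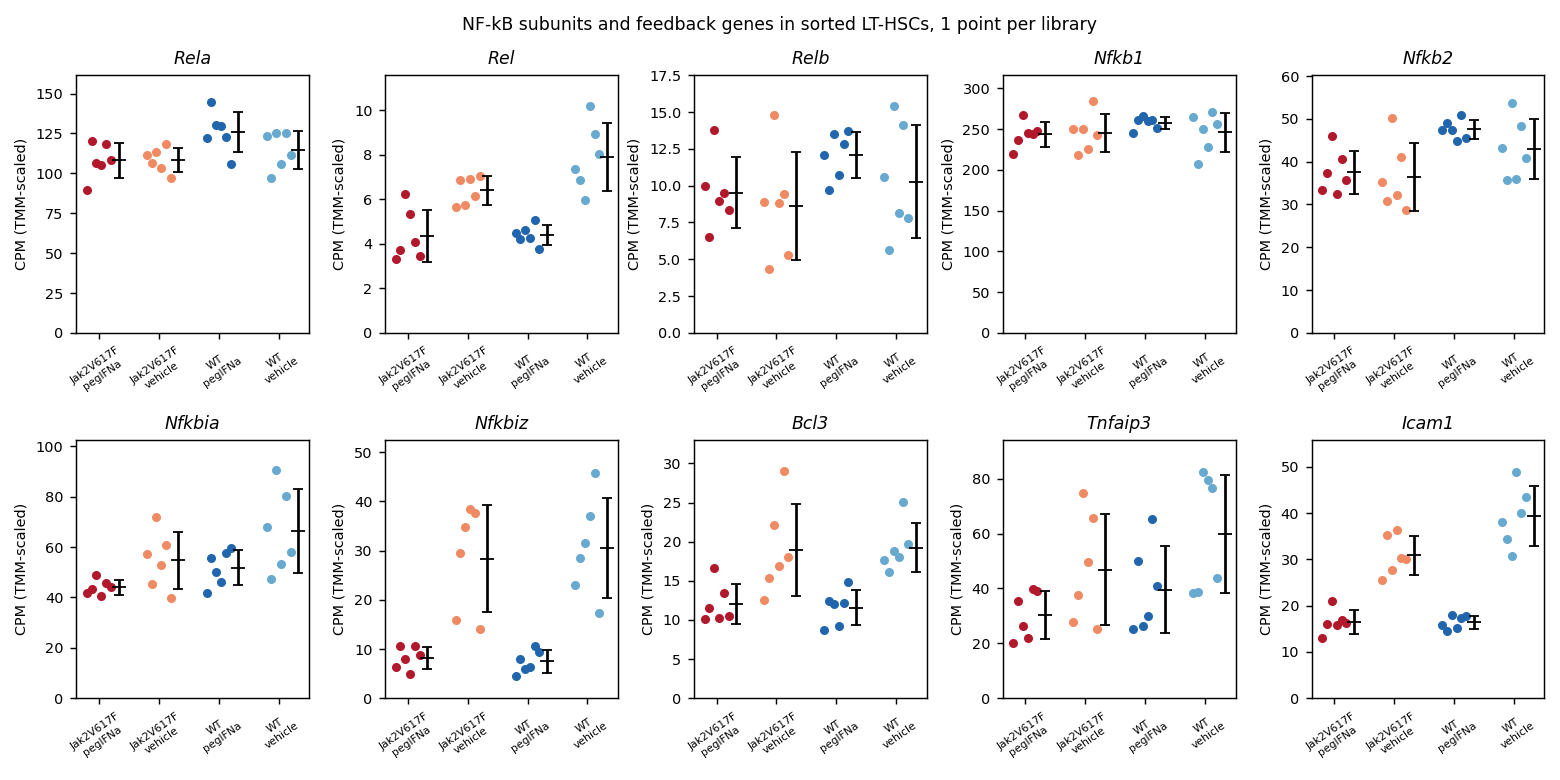
Level of each of the 10 genes in CPM (TMM-scaled, linear axis from 0), 1 point per library, with the group mean and SD drawn beside the 6 points of each group. Rel, Nfkbiz, Bcl3 and Icam1 lie lower with pegIFNa in both genotypes, while the pegIFNa and vehicle points of Rela, Relb, Nfkb1 and Nfkb2 overlap.

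Per length of transcript, Nfkb1 was the most abundant of the 10 genes in all 4 groups and Rel the least. Levels between genes are compared here as CPM per kilobase of the longest principal transcript. Nfkb1, which encodes the precursor of the DNA-binding subunit of the classical dimer, had 59.2 ± 3.77, 59.6 ± 5.67, 62.6 ± 1.84 and 59.8 ± 5.82 CPM per kb in Jak2V617F pegIFNa, Jak2V617F vehicle, WT pegIFNa and WT vehicle cells (mean ± SD, n = 6 each). Rela, its partner with the activation domain, came next at 39.8 to 46.4 CPM per kb over the group means, followed by Nfkbia at 27.9 to 42. The ranges of Rela and Nfkbia overlapped in both vehicle groups and did not overlap in either pegIFNa group. Rel stood at 0.583 ± 0.157, 0.857 ± 0.0847, 0.589 ± 0.0583 and 1.06 ± 0.204 CPM per kb, and its range was below that of the next gene in every group. That next gene was Nfkbiz in both pegIFNa groups and Relb in both vehicle groups. Between these ends, neighbours from Icam1 through Nfkb2, Tnfaip3, Bcl3 and Nfkbiz to Relb overlapped in both vehicle groups. The first place of Nfkb1 rests on the length used: with the length of all its annotated exons it had 20.4 CPM per kb in WT vehicle cells, below Nfkbia (41.1) and Rela (37.4). The last place of Rel rests on its length too, 7466 bases from an annotation in which Rel spans 23736847 to 23770970. In the count table Rel spans 23741514 to 23770970, so the length may hold bases that were not counted. Its level per kb would then be understated. Whether its range stays below that of the next gene with a shorter length was not tested.

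The genes also differed in their spread between libraries. In WT vehicle cells the SD over 6 libraries was 9.73% of the mean for Nfkb1 and 10.3% for Rela, against 37.2% for Relb and 36.2% for Tnfaip3. In Jak2V617F vehicle cells it was 9.51% for Nfkb1 and 7.18% for Rela, against 42.9% for Relb and 43.3% for Tnfaip3. With pegIFNa it was 6.38% for Nfkb1, 10.2% for Rela, 25.5% for Relb and 28.8% for Tnfaip3 in Jak2V617F cells. In WT cells with pegIFNa Relb, at 13.1%, was close to Rela at 10.1%, beside 2.95% for Nfkb1 and 40.1% for Tnfaip3. Nfkb1 and Rela form the classical dimer, Relb belongs to the alternative pathway and Tnfaip3 is a feedback gene.

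In WT cells pegIFNa lowered 5 of the 10 genes: Rel, Nfkbia, Nfkbiz, Bcl3 and Icam1. Calls rest on edgeR's quasi-likelihood test, with p-values adjusted over all 15879 genes by the method of Benjamini and Hochberg and a threshold of 0.05. No member was called higher. Of all genes, 56.8% were called in this comparison, 28.2% higher and 28.7% lower, so 5 lower calls in 10 stand beside a broad shift of the transcriptome. The median log2 fold change of the 10 genes was -0.48, against -0.014 over all genes tested. In 4 members (Rel, Nfkbiz, Bcl3 and Icam1) every pegIFNa library lay below every vehicle library, as was the case for 14.8% of all genes.

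Jak2V617F cells gave 4 lower calls among the same 10 genes, Rel, Nfkbiz, Bcl3 and Icam1, and no higher call. Of all genes, 44% were called, 21.7% higher and 22.3% lower. The median log2 fold change of the 10 was -0.43, against -0.01 over all genes. Libraries did not overlap for Nfkbiz and Icam1, as for 8.58% of all genes in the lower direction.

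**Figure D2:**
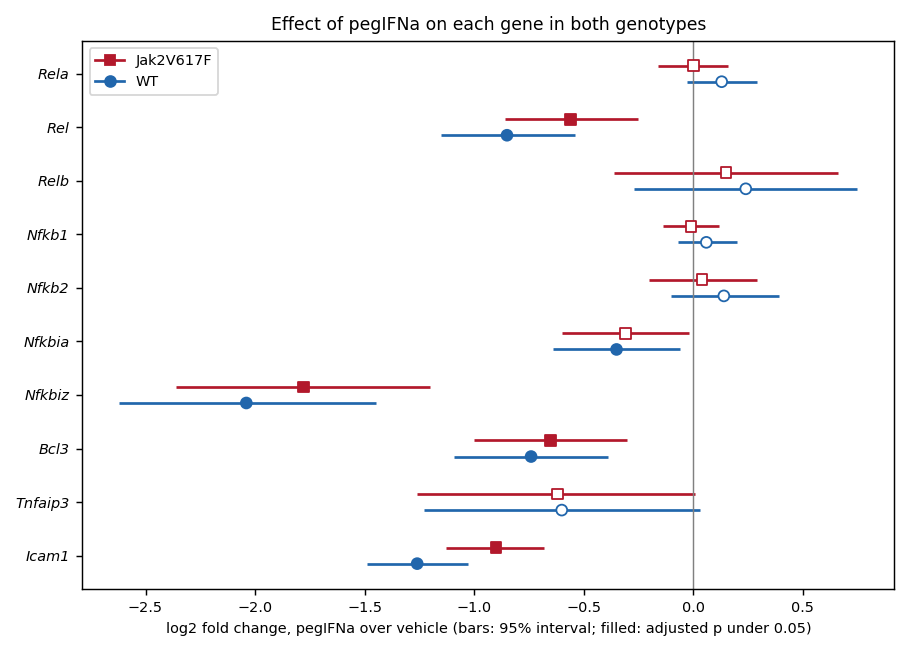
Log2 fold change of pegIFNa over vehicle for each gene in Jak2V617F cells (red squares) and WT cells (blue circles), with 95% intervals. Filled symbols have an adjusted p under 0.05. Nfkbiz has the lowest values (-1.78 and -2.04), Icam1 follows (-0.90 and -1.26), and the intervals of Rela, Relb, Nfkb1 and Nfkb2 include 0 in both genotypes.

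Among the subunits, Rel alone was called. Rel (ENSMUSG00000020275, chromosome 11, 23741514 to 23770970, GRCm38, minus strand) encodes c-Rel, a subunit with an activation domain that is best known from lymphocytes. Jak2V617F cells had 3.33, 3.89 and 6.25 CPM of Rel with pegIFNa (lowest, median and highest of 6 libraries), against 5.64, 6.51 and 7.06 CPM with vehicle. WT cells had 3.75, 4.37 and 5.06 CPM with pegIFNa, against 5.96, 7.72 and 10.2 CPM with vehicle. The WT groups do not overlap, and in Jak2V617F cells only the pegIFNa library of mouse 40 (6.25 CPM) lies within the vehicle range. Rel changed by -0.56 on the log2 scale in Jak2V617F cells (SE 0.15, adjusted p = 0.0044) and by -0.85 in WT cells (SE 0.15, adjusted p = 4.1e-05). The kB pair of the Rel promoter window is printed above.

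The other 4 subunit genes were not called in either genotype. Rela (ENSMUSG00000024927, chromosome 19, 5637483 to 5648130, plus strand) averaged 108 ± 11 CPM with pegIFNa and 108 ± 7.77 CPM with vehicle in Jak2V617F cells, and 126 ± 12.7 against 115 ± 11.8 CPM in WT cells. Its log2 change was 0.00 in Jak2V617F cells (95% interval -0.16 to 0.16) and 0.13 in WT cells (-0.03 to 0.29). Rela was called higher in WT cells where WT pegIFNa replicate 6 was left out (0.19, adjusted p = 0.038). Nfkb1 (ENSMUSG00000028163, chromosome 3, 135584655 to 135691547, minus strand) averaged 244 ± 15.5 against 245 ± 23.3 CPM in Jak2V617F cells and 258 ± 7.59 against 246 ± 24 CPM in WT cells. Its interval, -0.14 to 0.12 in Jak2V617F cells and -0.07 to 0.20 in WT cells, is the narrowest of the 10. A predicted gene on the same strand, Gm43430, overlaps Nfkb1.

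The alternative pathway is carried by Nfkb2, the precursor of its DNA-binding subunit, and Relb, the partner of that subunit. Nfkb2 (ENSMUSG00000025225, chromosome 19, 46304737 to 46312090, plus strand) averaged 37.5 ± 5.04 CPM with pegIFNa and 36.4 ± 8.03 CPM with vehicle in Jak2V617F cells, and 47.5 ± 2.23 against 43 ± 7.02 CPM in WT cells. Its log2 change was 0.04 (-0.20 to 0.29) and 0.14 (-0.10 to 0.39). Relb (ENSMUSG00000002983, chromosome 7, 19606217 to 19629438, minus strand) averaged 9.53 ± 2.43 against 8.61 ± 3.69 CPM in Jak2V617F cells and 12.1 ± 1.58 against 10.3 ± 3.82 CPM in WT cells. Its log2 change was 0.15 (-0.36 to 0.66) and 0.24 (-0.27 to 0.75), the widest intervals among the subunits. Genes on the opposite strand (Psd and AC114539.1) overlap Nfkb2, and whether counting used strand is not given in the sources used here.

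Of the inhibitors, Nfkbiz fell furthest. Nfkbiz (ENSMUSG00000035356, chromosome 16, 55811375 to 55838899, minus strand) encodes a nuclear IkB protein that acts as a cofactor at selected NF-kB targets and is itself induced by inflammatory signals. Jak2V617F cells had 4.96, 8.35 and 10.7 CPM with pegIFNa (lowest, median, highest), against 14.1, 32.1 and 38.4 CPM with vehicle. WT cells had 4.57, 7.10 and 10.6 CPM with pegIFNa, against 17.3, 30 and 45.7 CPM with vehicle. The groups do not overlap in either genotype. The log2 change was -1.78 in Jak2V617F cells (SE 0.28, adjusted p = 3.2e-05), a level of 0.291 times that with vehicle (95% interval 0.195 to 0.434). It was -2.04 in WT cells (SE 0.28, adjusted p = 2.7e-06), or 0.244 times (0.163 to 0.365).

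Bcl3 (ENSMUSG00000053175, chromosome 7, 19808462 to 19822770, minus strand) encodes another nuclear IkB protein, which binds homodimers of the DNA-binding subunits. It had 10.1, 11.0 and 16.6 CPM with pegIFNa in Jak2V617F cells, against 12.5, 17.5 and 29.0 CPM with vehicle. In WT cells it had 8.66, 12.1 and 14.8 CPM with pegIFNa, against 16.1, 18.4 and 25.1 CPM with vehicle. The Jak2V617F groups overlap between 12.5 and 16.6 CPM and the WT groups do not. Bcl3 changed by -0.65 in Jak2V617F cells (SE 0.17, adjusted p = 0.0035) and by -0.74 in WT cells (SE 0.17, adjusted p = 0.00076). The predicted genes Gm16174 and Gm16175 overlap it on the opposite strand.

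Nfkbia (ENSMUSG00000021025, chromosome 12, 55489411 to 55492647, minus strand) encodes IkB-alpha, the inhibitor that is degraded and made again in each round of activation. It had 40.6, 43.9 and 48.8 CPM with pegIFNa in Jak2V617F cells, against 39.9, 55.1 and 72.0 CPM with vehicle, and the lowest vehicle library (mouse 63) lies below all pegIFNa libraries. In WT cells it had 41.9, 53 and 59.7 CPM with pegIFNa, against 47.5, 62.9 and 90.7 CPM with vehicle, and the groups overlap. Nfkbia changed by -0.31 in Jak2V617F cells (SE 0.14, adjusted p = 0.077) and by -0.35 in WT cells (SE 0.14, adjusted p = 0.036), so the call holds in WT cells alone and the interaction did not separate the genotypes (0.04, adjusted p = 0.96). The WT call was lost where any of 6 libraries was left out. Without WT pegIFNa replicate 1, 3 or 4 the change was -0.28, -0.32 or -0.30 (adjusted p = 0.1, 0.068 and 0.083), and without WT vehicle replicate 1, 3 or 5 it was -0.33, -0.23 or -0.27 (adjusted p = 0.061, 0.14 and 0.11). In Jak2V617F cells Nfkbia was called without vehicle replicate 6, at -0.38 (adjusted p = 0.025).

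Tnfaip3 (ENSMUSG00000019850, chromosome 10, 19000910 to 19015657, minus strand) encodes a ubiquitin-editing enzyme that shuts off signalling upstream of the IkB kinases. It had 20, 30.9 and 39.8 CPM with pegIFNa in Jak2V617F cells, against 25.3, 43.7 and 74.9 CPM with vehicle, and 25.1, 35.4 and 65.5 CPM with pegIFNa in WT cells, against 38.2, 60.2 and 82.5 CPM with vehicle. The groups overlap in both genotypes. The log2 change, -0.62 in Jak2V617F cells (95% interval -1.26 to 0.01, adjusted p = 0.1) and -0.60 in WT cells (-1.23 to 0.03, adjusted p = 0.099), did not pass the threshold. It passed in WT cells where WT pegIFNa replicate 5, the library of mouse 52 with 65.5 CPM, was left out (-0.78, adjusted p = 0.035).

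Icam1 (ENSMUSG00000037405, chromosome 9, 21015960 to 21028797, plus strand), the ligand of leukocyte integrins and a classical NF-kB target, had the smallest p of the 10. It had 13.1, 16.1 and 21.0 CPM with pegIFNa in Jak2V617F cells, against 25.6, 30.3 and 36.3 CPM with vehicle. In WT cells it had 14.6, 16.5 and 17.9 CPM with pegIFNa, against 30.8, 39.1 and 49.0 CPM with vehicle. The groups are separate in both genotypes. Icam1 changed by -0.90 in Jak2V617F cells (SE 0.11, adjusted p = 1.1e-06), a level of 0.534 times that with vehicle (0.456 to 0.626), and by -1.26 in WT cells (SE 0.11, adjusted p = 2.5e-09), or 0.418 times (0.356 to 0.490). Its expected counts were not whole numbers in all 24 libraries, as RSEM gives where it divides reads between features, and Gm47079 overlaps it on the opposite strand.

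No member differed between genotypes in its response to pegIFNa by the interaction test of edgeR (0 of 10, and 0% of all genes, called; 1338 genes and 1 member had an unadjusted p under 0.05). That member was Icam1, whose fall was smaller in Jak2V617F cells by 0.35 on the log2 scale (95% interval 0.03 to 0.68, adjusted p = 0.56, range over the alternatives 0.097 to 0.81). The other 9 intervals include 0 and are wide: -0.54 to 1.06 for Nfkbiz, -0.92 to 0.87 for Tnfaip3 and -0.15 to 0.73 for Rel, against -0.26 to 0.11 for Nfkb1. With the mouse as a block, which uses the pairing of both genotypes within a mouse, 3.33% of all genes were called and again no member (Icam1 0.34, interval 0.11 to 0.58, adjusted p = 0.097). DESeq2 called 47 genes and limma-voom 281, and neither called a member.

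Between genotypes, Jak2V617F cells had lower levels of several members, and how many were called depended on whether the mouse was taken into account. Under vehicle the fit without the mouse called 1 of 10, Icam1, as lower (12.7% of all genes called, 4.23% lower), with a median log2 fold change of -0.25 over the 10 genes against -0.005 over all genes. With the mouse as a block it called 4, all lower: Nfkb2, Nfkbia, Tnfaip3 and Icam1 (31.1% of all genes, 13.6% lower). Under pegIFNa the fit without the mouse called none of the 10 (8.59% of all genes called, 4.43% lower; 3849 genes and 2 members with an unadjusted p under 0.05), with a median of -0.15 against 0.015. With the block it called 5, all lower: Rela, Relb, Nfkb2, Nfkbia and Tnfaip3 (24.6% of all genes, 11.3% lower). Granulocyte and monocyte markers moved with genotype in the fit without the mouse. Under pegIFNa 5 of 15 were called higher in Jak2V617F cells (summed level 998 to 1740 CPM, against 228 to 853 CPM in WT cells). Under vehicle 1 of 15 was called higher (468 to 2600 CPM, against 419 to 1250 CPM). None of the 15 was at 0 in all libraries of a group, and their part in these differences was not tested.

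Nfkb2 was the most regular of these differences. It was lower in the Jak2V617F library than in the WT library in 6 of 6 mice under pegIFNa and in 6 of 6 under vehicle. Under pegIFNa the mean difference was -0.35 on the log2 scale (SD 0.16 over mice), with the block at -0.35 (SE 0.06, adjusted p = 0.00063) and -0.34 without it (adjusted p = 0.069). Under vehicle the block gave -0.25 (SE 0.06, adjusted p = 0.0046) and the fit without it -0.24 (adjusted p = 0.17). Without the block, Nfkb2 was also called under pegIFNa by DESeq2 (-0.35, adjusted p = 0.032), in edgeR with only the groups compared (-0.35, adjusted p = 0.014) and in edgeR when WT vehicle replicate 3 (-0.35, adjusted p = 0.046), Jak2V617F pegIFNa replicate 3 (-0.41, adjusted p = 0.021) or Jak2V617F vehicle replicate 3 (-0.35, adjusted p = 0.031) was left out. Under vehicle it was called without Jak2V617F vehicle replicate 3 (-0.35, adjusted p = 0.041).

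Nfkbia was lower in Jak2V617F cells in 6 of 6 mice in both treatments as well. The block gave -0.23 under pegIFNa (SE 0.07, adjusted p = 0.022) and -0.26 under vehicle (SE 0.07, adjusted p = 0.0068), where the fit without it gave -0.23 (adjusted p = 0.32) and -0.28 (adjusted p = 0.19). Tnfaip3 was lower in 5 of 6 mice under pegIFNa (block -0.34, adjusted p = 0.028; without it -0.38, adjusted p = 0.49) and in 6 of 6 under vehicle (block -0.38, adjusted p = 0.012; without it -0.35, adjusted p = 0.46). The Tnfaip3 calls were lost when both libraries of mice 10 and 44, the mice of the pair apart on sex-linked genes, were left out of the block fit (adjusted p = 0.067 and 0.069), at differences of about the same size (-0.36 under pegIFNa and -0.32 under vehicle) from fewer mice. limma-voom did not call Tnfaip3 in either treatment. The calls of Nfkb2 and Nfkbia remained, with adjusted p of 0.0055 and 0.012 under pegIFNa and 0.0096 and 0.0034 under vehicle.

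Rela and Relb were each lower in 5 of 6 mice in both treatments. With the block, Rela differed by -0.22 under pegIFNa (SE 0.06, adjusted p = 0.0075) and -0.08 under vehicle (adjusted p = 0.29). Relb differed by -0.37 under pegIFNa (SE 0.11, adjusted p = 0.017) and -0.28 under vehicle (adjusted p = 0.059). The vehicle value of Relb passed without the mice 10 and 44 (-0.36, adjusted p = 0.03). In edgeR without the block neither was called, at -0.22 (adjusted p = 0.075) for Rela and -0.34 (adjusted p = 0.42) for Relb under pegIFNa. DESeq2, which did not take the mouse into account either, called Rela under pegIFNa (-0.23, adjusted p = 0.041). The edgeR fit with no block called it when 1 library was left out, namely WT pegIFNa replicate 6 (-0.28, adjusted p = 0.018) or Jak2V617F pegIFNa replicate 2 (-0.26, adjusted p = 0.045), and by a narrow margin (adjusted p = 0.05 after rounding) WT vehicle replicate 2 (-0.23) or Jak2V617F pegIFNa replicate 5 (-0.26).

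Icam1 differed between genotypes under vehicle and not under pegIFNa. Jak2V617F cells averaged 30.9 ± 4.23 CPM with vehicle against 39.3 ± 6.47 CPM in WT cells, lower in 5 of 6 mice, a log2 difference of -0.35 (SE 0.11, adjusted p = 0.038; with the block -0.34, adjusted p = 0.003). With pegIFNa they averaged 16.5 ± 2.56 CPM against 16.4 ± 1.43 CPM, lower in 3 of 6 mice (0.01, interval -0.22 to 0.24). The interaction of edgeR given above did not separate the treatments for Icam1. The vehicle call without the block was lost where any of 8 libraries was left out: WT pegIFNa replicate 1 (-0.34, adjusted p = 0.051), WT vehicle replicates 4, 5 and 6 (-0.28, -0.34 and -0.31, adjusted p = 0.11, 0.081 and 0.096) and Jak2V617F vehicle replicates 1, 3, 5 and 6 (-0.30, -0.31, -0.34 and -0.33, adjusted p = 0.087, 0.095, 0.073 and 0.077). It was also lost without the pair apart on sex-linked genes (-0.27, adjusted p = 0.099), while the block without mice 10 and 44 kept it (-0.32, adjusted p = 0.011). In edgeR Nfkbiz, Bcl3, Rel and Nfkb1 were called in neither genotype comparison with or without the block, with Jak2V617F lower in 2 to 5 of 6 mice. Under vehicle, limma-voom, which treats mice as random effects, did call Rel as lower (-0.29, adjusted p = 0.036), where the edgeR block gave -0.29 (adjusted p = 0.085).

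**Figure D3:**
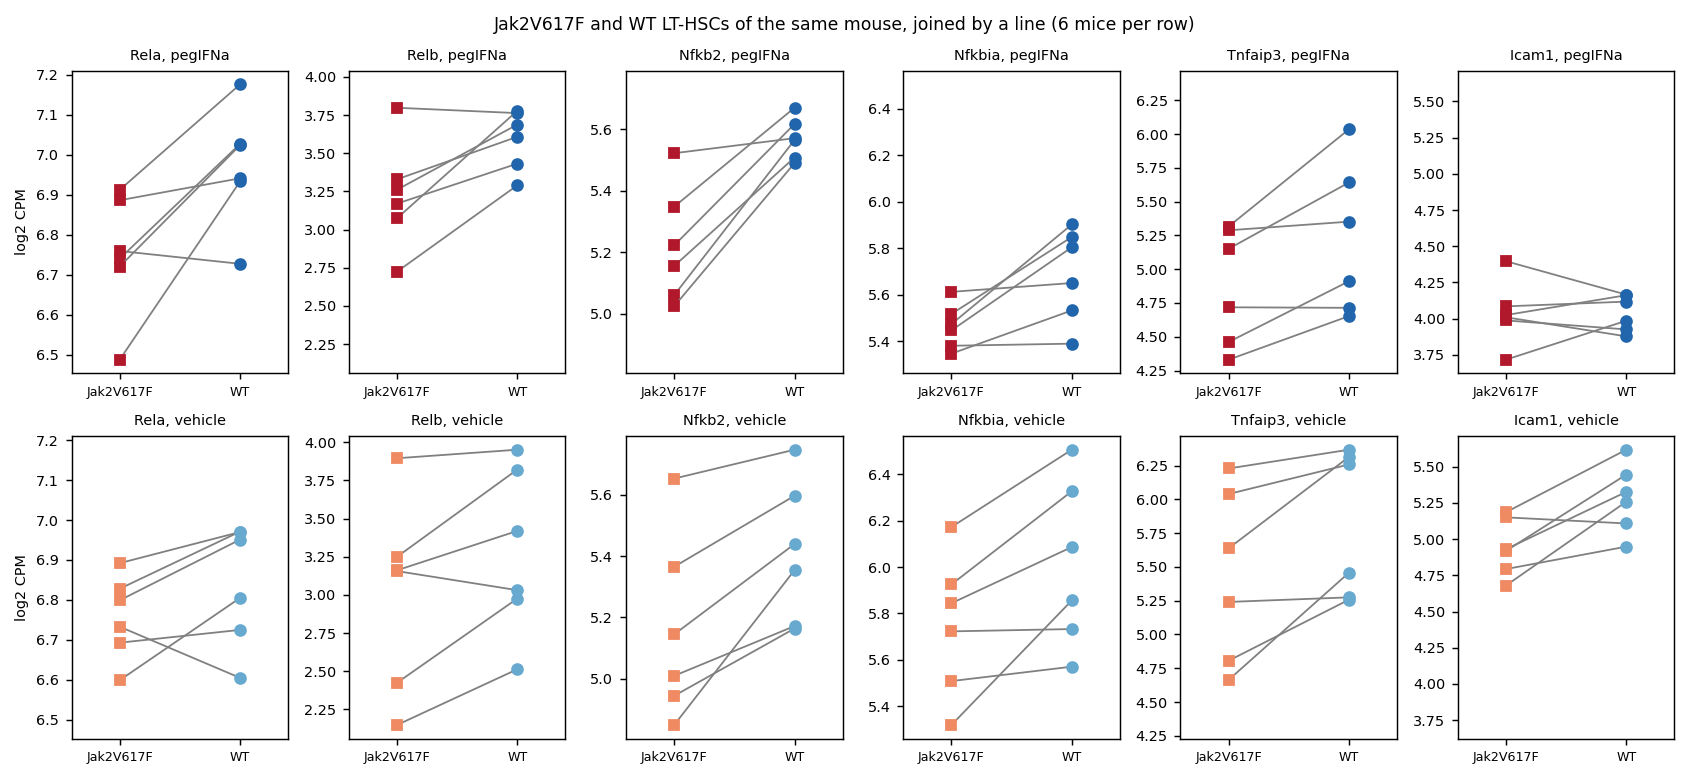
Log2 CPM of 6 genes in the Jak2V617F library (squares, left) and the WT library (circles, right) of the same mouse, joined by a line, with 6 pegIFNa mice above and 6 vehicle mice below. Each gene has its own axis range, shared by both rows. All 12 lines of Nfkb2 and of Nfkbia run lower on the Jak2V617F side, while those of Icam1 under pegIFNa cross.

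For some of the 10 genes both genotypes of a mouse deviated together from their group means, and for others they did not. Over all genes the residuals of the 12 pairs correlated at a median of 0.28 (0.12 to 0.42). For Tnfaip3 both libraries of a mouse lay on the same side of their group means in 6 of 6 pegIFNa mice and 6 of 6 vehicle mice. The count was as low as 2 of 6 for Rela and 3 of 6 for Rel under pegIFNa, and 3 of 6 for Icam1 under vehicle, and it was 4 to 6 of 6 for the other genes and treatments. Mouse 43 had the highest Tnfaip3 of the vehicle mice in both genotypes (74.9 CPM in Jak2V617F and 82.5 CPM in WT cells), and also the highest Relb (14.8 and 15.4 CPM), Nfkb2 (50.2 and 53.6 CPM) and Nfkbia (72.0 and 90.7 CPM). Mouse 42 had the lowest Relb in both (4.37 and 5.65 CPM), and mouse 63 the lowest Nfkbiz (14.1 and 17.3 CPM). Among pegIFNa mice, mouse 52 had the highest Tnfaip3 (39.8 and 65.5 CPM) and mouse 10 the lowest (20 and 25.1 CPM). Of the genes that were highest in mouse 43, Nfkb2, Nfkbia and Tnfaip3 hold kB matches in the promoter windows printed above, and Relb has no window. Rel, the other gene with kB matches, went the other way in mouse 43, where it was the lowest of the WT vehicle libraries (5.96 CPM) and the second lowest of the Jak2V617F vehicle libraries (5.74 CPM). Rela, whose window holds no kB match, was narrowly highest in mouse 43 in WT vehicle cells (125.4 CPM, against 125.3 CPM in mouse 61). In Jak2V617F vehicle cells Rela was highest in mouse 61. The part of kB sites in these levels was not tested.

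**Figure D4:**
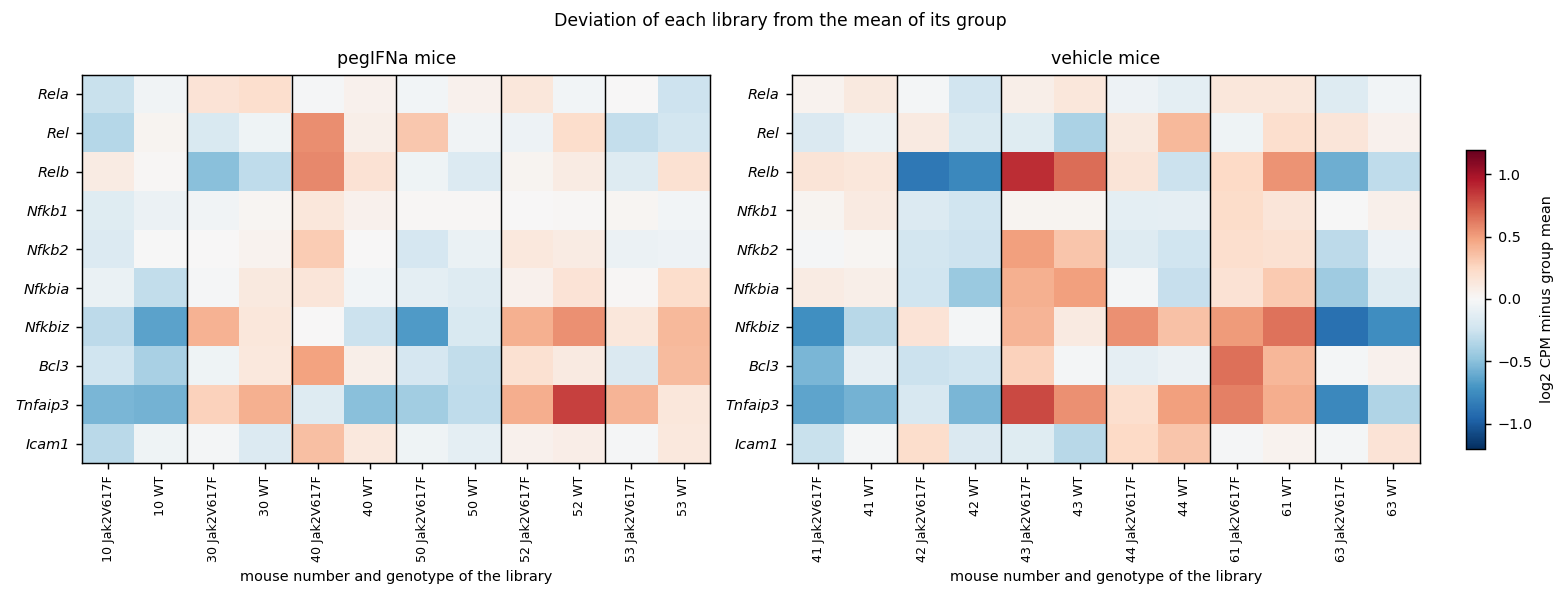
Log2 CPM of each library minus the mean of its group, for the 10 genes (rows), with both libraries of a mouse side by side, Jak2V617F left of WT, in pegIFNa mice (left panel) and vehicle mice (right panel). Neighbouring columns share colours in places, as in Relb and Tnfaip3 of mouse 43 (red) and Nfkbiz of mouse 63 (blue).

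Immediate early genes, the first genes that cells switch on after a stimulus, fell with pegIFNa in both genotypes, as did Rel, Nfkbiz, Bcl3 and Icam1. Of 23 such genes, 17 were called lower in Jak2V617F cells and 19 in WT cells and none higher, with median log2 fold changes of -1.31 and -1.75. Egr1 changed by -1.94 and -2.49, Fosl2 by -1.2 and -1.61, and Dusp2 by -0.87 and -1.16. Their summed level was 1170 to 4260 CPM with pegIFNa against 3060 to 10200 CPM with vehicle in Jak2V617F cells, and 1100 to 4430 against 3770 to 9770 CPM in WT cells, and none of the 23 was at 0 in all libraries of a group. Within the pegIFNa mice the sum was highest in mice 30, 52 and 53 (4260, 4200 and 3210 CPM in Jak2V617F and 4430, 3270 and 2390 CPM in WT cells), where Nfkbiz was also higher (10.6, 10.7 and 8.72 CPM in Jak2V617F and 7.87, 10.6 and 9.44 CPM in WT cells) than in mice 10, 40 and 50 (6.39, 7.99 and 4.96 CPM, and 4.57, 5.99 and 6.33 CPM). Tnfaip3 split these mice in the same way (35.5, 39.8 and 39 against 20, 26.2 and 22 CPM in Jak2V617F cells, and 49.9, 65.5 and 40.8 against 25.1, 26.2 and 30 CPM in WT cells). Sample-sheet numbers in the library names pair mouse 30 with 10, 52 with 40 and 53 with 50, so each pair holds a high and a low mouse. Whether the high and low mice were handled as separate sets is not given in the labels and cannot be told apart from differences between mice. Mouse 43 had the highest sum of the vehicle mice (10200 and 9770 CPM), though not the highest Nfkbiz (34.8 and 31.5 CPM). Mouse 63, with the lowest Nfkbiz of the vehicle mice, also had the lowest sum (3060 and 3770 CPM). Rel and Icam1 did not follow the sum from mouse to mouse in this way. Rel in Jak2V617F cells with pegIFNa was higher in mice 40 and 50 (6.25 and 5.32 CPM), whose sums were low, than in mice 30, 52 and 53 (3.71, 4.07 and 3.46 CPM). Mouse 10, with the lowest sum of that group (1170 CPM), had its lowest Rel (3.33 CPM). In mouse 63 Rel was the highest of the Jak2V617F vehicle libraries (7.06 CPM), and Icam1 in its WT library was the second highest (43.5 CPM). The part of the immediate early genes in the fall of the members was not tested. Stem cell markers moved with pegIFNa too: 12 of 14 LT-HSC markers were called lower and 1 (Ly6a) higher in each genotype, at summed levels of 1200 to 1890 against 1720 to 2120 CPM in Jak2V617F cells and 1310 to 1740 against 2180 to 2870 CPM in WT cells, and their part was not tested either.

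Markers of other blood cells moved with pegIFNa as well. Of 7 erythroid markers, 5 were called lower and 1 (Car1) higher in each genotype, with Slc4a1, the anion exchanger of red cells, at -4.90 and -5.12, Alas2, which makes haem, at -2.88 and -3.69, and Car1 at 1.88 and 3.04 in Jak2V617F and WT cells. Their summed level was 65 to 297 CPM with pegIFNa against 173 to 478 CPM with vehicle in Jak2V617F cells, and 269 to 492 against 184 to 815 CPM in WT cells. Of 8 macrophage and dendritic markers, 3 were called lower in each genotype, among them Flt3 (-2.06 and -2.53), at sums of 29.5 to 93.8 against 34.1 to 140 CPM and 14.2 to 34.5 against 28.2 to 74.7 CPM. Of the T and NK cell markers 2 of 7 passed the filter, and in both genotypes Nkg7 was higher (0.86 and 0.88) and Klrb1c lower (-2.30 and -3.97), at sums of 89.7 to 143 against 59.2 to 78.2 CPM and 65.4 to 103 against 36.7 to 81.3 CPM. Of 6 megakaryocyte markers that passed the filter, 1 (Gp5) was called higher in Jak2V617F cells and 2 (Gp5 and Pf4) in WT cells, at sums of 1560 to 2190 against 906 to 1910 CPM and 1240 to 1950 against 620 to 1630 CPM. No marker of these 4 lists was at 0 in all libraries of a group, and the part of these cell types in the changes of the members was not tested.

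Upstream of the members, ligands and receptors moved in both directions with pegIFNa, as did genes at large. Of 20 tested, 4 were called higher and 7 lower in Jak2V617F cells, and 4 higher and 8 lower in WT cells. Of all genes, 21.7% were called higher and 22.3% lower in Jak2V617F cells, and 28.2% and 28.7% in WT cells. These shares stand beside every count of pegIFNa calls in a gene list given here. Il1rl1, the receptor of interleukin-33, rose to 16.3 ± 4.99 CPM with pegIFNa, against 4.79 ± 2.33 CPM with vehicle, in Jak2V617F cells (log2 1.76, adjusted p = 0.00022) and to 49.1 ± 18.4 against 4.94 ± 2.02 CPM in WT cells (3.31, adjusted p = 6.8e-08). Under pegIFNa it was lower in Jak2V617F than in WT cells (-1.60, adjusted p = 0.0041). This value, and the genotype differences of other genes outside the members given below, come from the fit without the mouse. Tnfrsf1a, the main receptor of tumour necrosis factor, fell to 57.7 ± 9.76 against 75.9 ± 5.36 CPM in Jak2V617F cells (log2 -0.40, adjusted p = 0.0011) and to 58.0 ± 6.99 against 85.5 ± 8.05 CPM in WT cells (-0.56, adjusted p = 1.4e-05). Tlr4, the receptor of bacterial lipopolysaccharide, fell to 8.95 ± 3.09 against 12.5 ± 2.07 CPM in Jak2V617F cells (-0.48, adjusted p = 0.025) and to 6.86 ± 1.34 against 15.6 ± 1.26 CPM in WT cells (-1.18, adjusted p = 3.3e-06). In Jak2V617F and WT cells alike the interleukin-1 receptor gene Il1r1 fell (-1.08, adjusted p = 0.00061, and -0.95, adjusted p = 0.0012) and Tlr7, a sensor of single-stranded RNA, rose (1.92, adjusted p = 0.00023, and 1.16, adjusted p = 0.0099). Tnfrsf13c, the receptor of the B cell survival factor BAFF, fell in both (-0.97, adjusted p = 0.00041, and -1.32, adjusted p = 5.7e-06).

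Among 30 adaptors and upstream kinases, 7 were called higher and 10 lower in Jak2V617F cells, and 9 higher and 10 lower in WT cells. Traf1, a signalling adaptor and a known NF-kB target, fell to 1.85 ± 0.881 CPM with pegIFNa, against 5.31 ± 0.814 CPM with vehicle, in Jak2V617F cells (-1.51, adjusted p = 7.5e-05) and to 2.32 ± 0.983 against 7.86 ± 1.25 CPM in WT cells (-1.75, adjusted p = 4.6e-06). Irak3, a brake of Toll-like receptor signalling, fell as well (-0.62, adjusted p = 0.0001, and -0.94, adjusted p = 1.8e-07) and was lower in Jak2V617F than in WT cells under vehicle (-0.48, adjusted p = 0.0072). Rnf31, the catalytic part of the linear ubiquitin ligase, rose (0.43, adjusted p = 0.00014, and 0.57, adjusted p = 1.9e-06). The Toll-like receptor adaptor Tirap fell in Jak2V617F cells (-0.41, adjusted p = 0.00058) and in WT cells (-0.52, adjusted p = 2.2e-05).

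All 5 IkB kinase genes were called in WT cells and 4 of them in Jak2V617F cells, with small changes. Ikbke, the inducible non-classical kinase, fell to 28.1 ± 2.41 CPM with pegIFNa against 37.1 ± 4.11 CPM with vehicle in Jak2V617F cells (-0.40, adjusted p = 0.00029) and to 27.2 ± 2.02 against 46.1 ± 4.85 CPM in WT cells (-0.76, adjusted p = 3.7e-08). Chuk, the kinase of the alternative pathway, rose (0.18, adjusted p = 0.016, and 0.27, adjusted p = 0.00045), and the scaffold Ikbkg fell (-0.19, adjusted p = 0.01, and -0.26, adjusted p = 0.0006). Under vehicle, Jak2V617F cells had lower Ikbke (-0.31, adjusted p = 0.012) and Ikbkg (-0.19, adjusted p = 0.039) and higher Chuk (0.22, adjusted p = 0.019) than WT cells.

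Other inhibitors of the pathway did not all follow Nfkbia and Nfkbiz. Of 17, 5 were called higher and 3 lower in Jak2V617F cells, and 6 higher and 8 lower in WT cells. Nfkbid, a nuclear IkB protein related to Nfkbiz, fell to 12.3 ± 2.63 CPM with pegIFNa against 26.6 ± 9.48 CPM with vehicle in Jak2V617F cells (-1.12, adjusted p = 0.00029) and to 11.3 ± 1.71 against 25.6 ± 7.30 CPM in WT cells (-1.19, adjusted p = 8e-05). Nfkbib, which encodes the cytoplasmic inhibitor IkB-beta, rose to 34.4 ± 4.70 against 23.3 ± 3.86 CPM (0.56, adjusted p = 0.00016) and to 35.5 ± 3.41 against 21.5 ± 2.67 CPM (0.72, adjusted p = 3.4e-06). Under vehicle, Tnip1, a binding partner of the Tnfaip3 product, was lower in Jak2V617F than in WT cells (-0.31, adjusted p = 0.0031).

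Known NF-kB targets likewise split. Of 31 tested, 8 were called higher and 10 lower in Jak2V617F cells, and 9 higher and 12 lower in WT cells, with medians of -0.07 and -0.44. Cxcl10 and Ccl5, chemokine genes that interferon also induces, were at 21.3 ± 6.14 against 3.06 ± 1.4 CPM (2.80, adjusted p = 1.7e-05) and 3.68 ± 1.18 against 0.450 ± 0.225 CPM (3.04, adjusted p = 1.9e-06) in Jak2V617F cells with pegIFNa and vehicle. In WT cells they were at 21.6 ± 9.16 against 2.77 ± 2.16 CPM (2.98, adjusted p = 3.1e-06) and 3.54 ± 1.33 against 0.858 ± 0.396 CPM (2.04, adjusted p = 4.2e-05). Ier3, a survival gene that is also in the immediate early list, was at 11.7 ± 2.13 against 28.9 ± 4.52 CPM in Jak2V617F cells (-1.30, adjusted p = 1.1e-08) and 13.1 ± 0.804 against 33.4 ± 5.48 CPM in WT cells (-1.36, adjusted p = 2.9e-09). Marcksl1 fell in Jak2V617F cells (-0.66, adjusted p = 3.8e-06) and in WT cells (-0.73, adjusted p = 2.9e-07). The immunoproteasome subunit Psmb9 rose in Jak2V617F cells (0.51, adjusted p = 5.1e-05) and in WT cells (0.60, adjusted p = 2.8e-06), as did Ehd1, an endocytic recycling gene (0.47, adjusted p = 0.0012, and 0.93, adjusted p = 1.8e-07). Between genotypes, 2 of the 31 were called higher in Jak2V617F cells under vehicle (Ehd1 and Plau) and 2 under pegIFNa (Cxcl2 and Vcam1), with 0 lower in both. Of all genes, 12.7% and 8.59% were called in these comparisons. Cxcl2 differed by 2.67 (adjusted p = 0.034) at very low levels (0.28 ± 0.205 against 0.0418 ± 0.0197 CPM). Vcam1, an adhesion gene like Icam1, was higher in Jak2V617F than in WT cells under pegIFNa (14.5 ± 8.20 against 3.90 ± 2.28 CPM, log2 1.88, adjusted p = 0.047), the comparison in which Icam1 was not called. Vcam1 is also in the list of macrophage and dendritic markers. Of those 8, 2 were called higher in that comparison, Vcam1 and Cd68 (0.70, adjusted p = 0.03), and none lower. The part of such cells in the Vcam1 difference was not tested.

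The genes whose profiles over the 24 libraries were closest to those of the members that fell were found by the mean absolute difference of centred log2 CPM. For Icam1 they were Atp2b4 (0.080) and Glul (0.100), and for Rel they were Il16 (0.105) and Scaper (0.109). For Nfkbiz they were Zfp36 (0.285) and Ppp1r15a (0.296), for Bcl3 Ralgds (0.155) and Irf1 (0.165), and for Nfkbia Ctdsp2 (0.144) and March3 (0.147). The neighbours of Nfkbiz lie further off than those of the others, and its own range is wider, at 3.3 log2 units against 1.18 for Nfkbia. All libraries share treatment and mouse, so this is a description of these samples.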

How the data were processed

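Per the submitters' processing notes, the tools were RSEM 1.2.30, STAR 2.5.2a and cutadapt 1.11, with the build GRCm38. The authors deposited RSEM expected counts per gene. RSEM shares ambiguous reads between genes, so 16.8% of values (14.2% for the members) are not whole, and they were rounded for testing. Every row names a gene and every sample column was used (0 left out). Totals of 24.6 to 39.7 M set the precision, together with a common biological coefficient of variation of 18.6%.

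Genes were kept by filterByExpr (minimum count 10) and tested with edgeR 4.0.16 (R 4.3.3), TMM factors, group means as the only terms, and the quasi-likelihood F test with robust dispersions. P-values were adjusted over 15879 genes (Benjamini-Hochberg) and called under 0.05. SE is the log2 fold change over the root of F, and intervals use the t quantile. Log2 CPM used a prior count of 2. Lengths are from GENCODE M21. The tests were also run on counts simulated from the means and dispersions of the fit to these data. Those libraries were drawn independently, without pairs from a mouse, and the outcome is not given here. Alternatives were DESeq2 1.42.0, limma-voom (limma 3.58.1), RLE and upper-quartile factors, no filter, 1 CPM in 12 libraries, the 12 libraries compared, blocks, raw totals and libraries left out.

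Both genotypes came from each chimeric mouse, and numbers in the library names were read as mice. The 12 pairs' residuals correlated at 0.12 to 0.42 (median 0.28), every pair above 0.1. Genotype results of the members, and the shares of all genes called, are therefore also given with the mouse as a block. Genotype differences of other named genes and of markers come from the fit without the mouse alone. Within a group, replicates are separate mice, so p-values of the fit without the mouse measure the spread between mice. That fit treats the 24 libraries as independent, although they came from 12 mice. P-values of the block fit measure how the genotype difference within a mouse varies from mouse to mouse. Sample-sheet numbers in the library names recur in pairs within groups, and no set of libraries could be assigned from them.

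The members and gene lists were chosen with earlier results of these data known. Named beside the 10 members were up to 4 called genes with the smallest p in each list and comparison, and the 2 genes closest in profile to each called member. Not all genes the rule selects are printed. Kit, Slamf1, Ly6a and Xist were named as checks of the gate and the libraries, and the markers of other blood cells were named after their values were seen.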

Additional observations from a re-analysis of the deposited data

How the results depend on the processing

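No called member changed direction under any alternative run. With pegIFNa, 4 members were called in Jak2V617F cells and 5 in WT cells. Leaving out each library in turn gave 4 to 5 and 4 to 6. The count of members in WT cells was 4 without a filter, with only the groups compared and without both libraries of mice 10 and 44, each time through the loss of Nfkbia (adjusted p = 0.083, 0.052 and 0.067), and 6 with limma-voom, through Tnfaip3 (adjusted p = 0.049). In Jak2V617F cells Nfkbia was called with upper-quartile factors (adjusted p = 0.031) and when only the compared groups were fitted (0.037). A replicate block by number, which joins different mice across treatments, called 5 members in Jak2V617F cells (Nfkbia added, adjusted p = 0.047) and 5 in WT cells.

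For Jak2V617F against WT under vehicle (1 member), 0 members were called without a filter, with only the groups compared, without the pair of libraries apart on sex-linked genes and without both libraries of their mice, 4 with the mouse as a replicate block (Nfkb2, Nfkbia, Tnfaip3 and Icam1) and 4 with limma-voom, which had the mouse as a random block (Rel, Nfkb2, Nfkbia and Icam1, not Tnfaip3). Under pegIFNa (0 members), 1 was called with only the groups compared (Nfkb2), 2 with limma-voom and with DESeq2 (Rela and Nfkb2 each time), and 5 with the mouse as a replicate block. Tnfaip3 was called between genotypes by the edgeR block on all mice and by no other alternative. The block without the mice 10 and 44, added after the data were seen, called 4 members in each treatment (25% of all genes under vehicle, 16% under pegIFNa). Leaving out each library gave 0 to 1 members in both genotype comparisons and 0 to 0 in the interaction. The causes of these shifts were not tested. Scaling by raw totals moved no level of a member by more than its SD. The length of all exons, also added after the data were seen, moved 25 of 40 levels per kilobase. With 6 libraries a group, intervals of about 1 log2 unit for Relb and Tnfaip3 limit what could be detected.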
